A study of Mus musculus with 17 samples.

Results

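A set of 10 genes of the Notch pathway were followed through 17 RNA-seq libraries of mouse mammary gland cells: the receptors Notch1, Notch2 and Notch4, the ligands Dll1, Dll4 and Jag1, the DNA-binding factor Rbpj, and the target genes Hes1, Heyl and Nrarp. They were chosen by gene symbol alone, as 10 of the 35147 distinct symbols listed over the 4 deposited tables. All 10 were listed for cultured macrophages and for P4 cells, and 9 for the freshly sorted macrophages, where Heyl had no entry.

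The study asked how the chemokine CXCL12, made by epithelial cells, and its receptor CXCR4 act between mammary epithelium and macrophages of virgin mice. Macrophages sorted with F4/80 and CD11b came from 4 genotypes with 2 libraries each: LysM-Cre with Cxcr4 fl/fl alleles, LysM-Cre alone, K8-Cre with Cxcl12 fl/fl alleles, and K8-Cre alone, so that every control also carried its Cre. LysM-Cre acts in myeloid cells in general, while K8-Cre acts in luminal epithelium, so the macrophages of the Cxcl12 line were neighbours of the cells in which the gene was deleted. Wild type macrophages were split by surface CXCR4 into 2 positive and 1 negative library. Other wild type macrophages were cultured and given recombinant CXCL12 together with the AKT inhibitor GSK690693, the inhibitor alone, CXCL12 alone, or neither, with 1 library per treatment. P4 cells, a basal population enriched for mammary stem cells by Lin-CD24+CD29high sorting, gave 1 library each from K8-Cre Cxcl12 fl/fl and K8-Cre mice. The labels give no age, dose or treatment time and do not say what a repeat number stands for. Differences between these libraries may therefore be technical, and the p-values rest on a spread drawn mostly from the trend over genes.

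Notch receptors are cut when a Delta or Jagged ligand on a neighbouring cell binds them, and the freed intracellular part joins RBPJ on DNA and switches on genes such as Hes1, Heyl and Nrarp. In the mammary gland, Dll1 made by basal stem cells is known to engage Notch receptors on nearby macrophages. Dll4, Jag1, Notch1 and Notch4 are also active in blood vessels.

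Macrophage libraries held 8.60 to 37.2 M reads (M, 1000000), as recovered from the step of 1 read in the deposited values, and values are given as CPM, counts per 1000000 reads of the library. A floor of 3 reads stood at 0.0806 to 0.349 CPM, and this floor and the intervals on read ratios cover counting error only. The F4/80 gene Adgre1 was found in all 15 macrophage libraries, at 149 to 1429 CPM. P4 libraries are given as FPKM, scaled by gene length and library size, and their depth is unknown. Their basal keratin gene Krt5 stood at 456 FPKM in the knockout and 436 FPKM in the control. In the Cxcr4 knockout, Cxcr4 had 232 and 140 CPM against 819 and 318 CPM in its controls, and Lyz2, where the LysM-Cre allele sits, had 67.4 and 51.7 CPM against 10226 and 2780 CPM. A difference in the Cre allele and the loss of Cxcr4 therefore cannot be told apart in that line. Macrophage libraries of the Cxcl12 line held 58.2 and 164 CPM of Cxcl12 in the knockout, against 11.7 and 149 CPM in the control. Which cells of the sort this RNA came from was not tested.

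Freshly sorted macrophages carried mostly Notch2 and Rbpj RNA. Per kilobase of exon, Notch2 held a median of 56.1 CPM over 11 libraries (range 46.1 to 96.0) and Rbpj 43.8 CPM (34.2 to 64.7), and these 2 genes took the first and second place in each library. Their ranges overlap, so their order relative to each other is not fixed. Jag1 followed with 12.3 CPM per kilobase (7.36 to 31.4), Hes1 with 9.82 (2.97 to 26.4) and Notch1 with 8.25 (6.04 to 18.5), and these ranges overlap one another but lie below the lowest Rbpj value. Dll4 had a median of 2.06 CPM per kilobase, Dll1 of 1.78 and Notch4 of 0.64, again with overlapping ranges. Nrarp, a small feedback inhibitor of Notch signalling, was under the 3-read floor in 6 of the 11 libraries. Libraries of 2 tables normalized separately are placed side by side in this order.

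In annotation GENCODE M21 on build GRCm38, all 10 are protein-coding genes. Notch1 lies on chromosome 2 from 26457903 to 26516663 on the minus strand, Notch2 on chromosome 3 from 98013527 to 98150361 on the plus strand, and Notch4 on chromosome 17 from 34564268 to 34588503 on the plus strand. Dll1 lies on chromosome 17 from 15367354 to 15376872 and Jag1 on chromosome 2 from 137081456 to 137116644, both on the minus strand, and Dll4 on chromosome 2 from 119325784 to 119335962 on the plus strand. The remaining 4 are on plus strands, with Rbpj on chromosome 5 from 53466152 to 53657362, Hes1 on chromosome 16 from 30064384 to 30067796, Heyl on chromosome 4 from 123233556 to 123249875 and Nrarp on chromosome 2 from 25180758 to 25183339. Exons of Notch1, Dll1, Dll4 and Nrarp overlap those of transcripts on the opposite strand and exons of Notch2 those of Gm42820 on the same strand, and the sources used here do not say whether counting used the strand. The antisense partner of Nrarp, Gm38287, was listed at 23.5 CPM in K8-Cre control 1 and 12.5 CPM in Cxcl12 knockout 1. Nrarp was under the floor in both of these libraries. It was also under the floor in LysM-Cre control 2 and in Cxcr4 knockout 1 and 2, where Gm38287 had 0.348, 0.0594 and 0.608 CPM. The part of antisense reads in the Nrarp level was not tested. Rbpj has a processed pseudogene, Rbpj-ps3, listed at 2.27 to 84.6 CPM in the macrophage libraries, so its reads may be split.

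Loss of Cxcr4 in myeloid cells left no member past the threshold: 0 of the 9 members passed limma at a Benjamini-Hochberg adjusted p under 0.05, against 0.00579% of the 17275 genes tested, which was 1 gene. At an unadjusted p under 0.05 there were 575 genes and none of the members. The gene count was 17 without LysM-Cre control 1, 150 without control 2, 19 without Cxcr4 knockout 2, and 4 and 3 without Cxcl12 knockout 1 and 2, with 0 members each time. The 2 members that did not overlap between knockout and control were both Delta ligands, Dll4 on the high side and Dll1 on the low side, and 25.5% of all genes tested likewise did not overlap (16.7% higher, 8.78% lower). The members' median change was -0.12 on the log2 scale, against 0.14 over all genes.

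The receptor Notch1, which acts in lymphocyte and vessel development, had 264 and 104 CPM in Cxcr4 knockout macrophages against 105 and 85.9 CPM in controls. Knockout repeat 1 was high and the other 3 libraries lay close together, with knockout repeat 2 just under control repeat 1. The log2 change was 0.80 (SE 0.62, 95% interval -0.43 to 2.02). Notch2, the main receptor RNA here, had 803 and 604 CPM in the knockout against 1035 and 497 CPM in the control, so that the control libraries enclosed both knockout libraries. Notch4, best known from endothelium, was listed at 0 and 5.15 CPM in the knockout against 0 and 6.31 CPM in the control. Its zeros fell in repeat 1 of both groups. Over the 4 genotypes, repeat 1 libraries held 8.60 to 16.8 M reads with 13.6% to 36.8% of genes at 0, and repeat 2 libraries 20.1 to 37.2 M reads with 8.002% to 19.3% of genes at 0.

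Dll4 had 27.3 and 7.44 CPM in Cxcr4 knockout macrophages against 0.212 and 0.200 CPM in LysM-Cre controls. Both controls were close to nothing, with 3 and 4 reads, while the knockouts had 459 and 208 reads. The ratio was 129 in repeat 1 (exact counting interval 43.7 to 626) and 37.4 in repeat 2 (14.4 to 139). Over libraries the log2 change was 3.68 (SE 1.91, 95% interval -0.11 to 7.46, limma adjusted p = 1), so the difference did not pass. The spread in this fit comes mostly from the trend over genes (97.3 degrees of freedom, against 4 from the libraries). Among the K8-Cre controls Dll4 stood at 0 and 14.9 CPM, a spread as wide within one genotype. The summed level of 15 endothelial markers was 65.3 and 147 CPM in the Cxcr4 knockout against 166 and 165 CPM in its control, and single markers differed. Pecam1 had 18.7 and 28.1 CPM in the knockout against 2.20 and 24.6 CPM in the control, and Cdh5 had 23.5 and 20.0 CPM in the knockout against 70.9 and 16.9 CPM in the control, both named after their values were seen. The part of endothelial RNA in the Dll4 levels was not tested.

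Dll1 differed in the other direction, with 16.98 and 1.89 CPM in the Cxcr4 knockout against 54.8 and 18.3 CPM in the control. The highest knockout value lay just under the lowest control value. Repeat by repeat the log2 change was -1.63 and -2.74, and -2.18 in the fit (SE 1.64, limma adjusted p = 1). Jag1, the ligand with the most RNA per kilobase in these cells, had 65.4 and 102 CPM against 102 and 71.7 CPM in the control, with the groups interleaved.

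Among the factor and its targets, Rbpj had 436 and 626 CPM in the Cxcr4 knockout against 512 and 648 CPM in the control. Hes1, a repressor that many Notch-responsive cells switch on, had 20.0 and 6.04 CPM against 17.9 and 12.2 CPM. Nrarp was under the floor in both knockout libraries and in 1 control, and had 2.19 CPM in the other. None of these groups separated. The log2 changes of Rbpj (-0.14), Hes1 (-0.38), Notch2 (-0.04), Jag1 (-0.06) and Notch4 (-0.12) each turned positive when 1 library was left out.

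**Figure D1:**
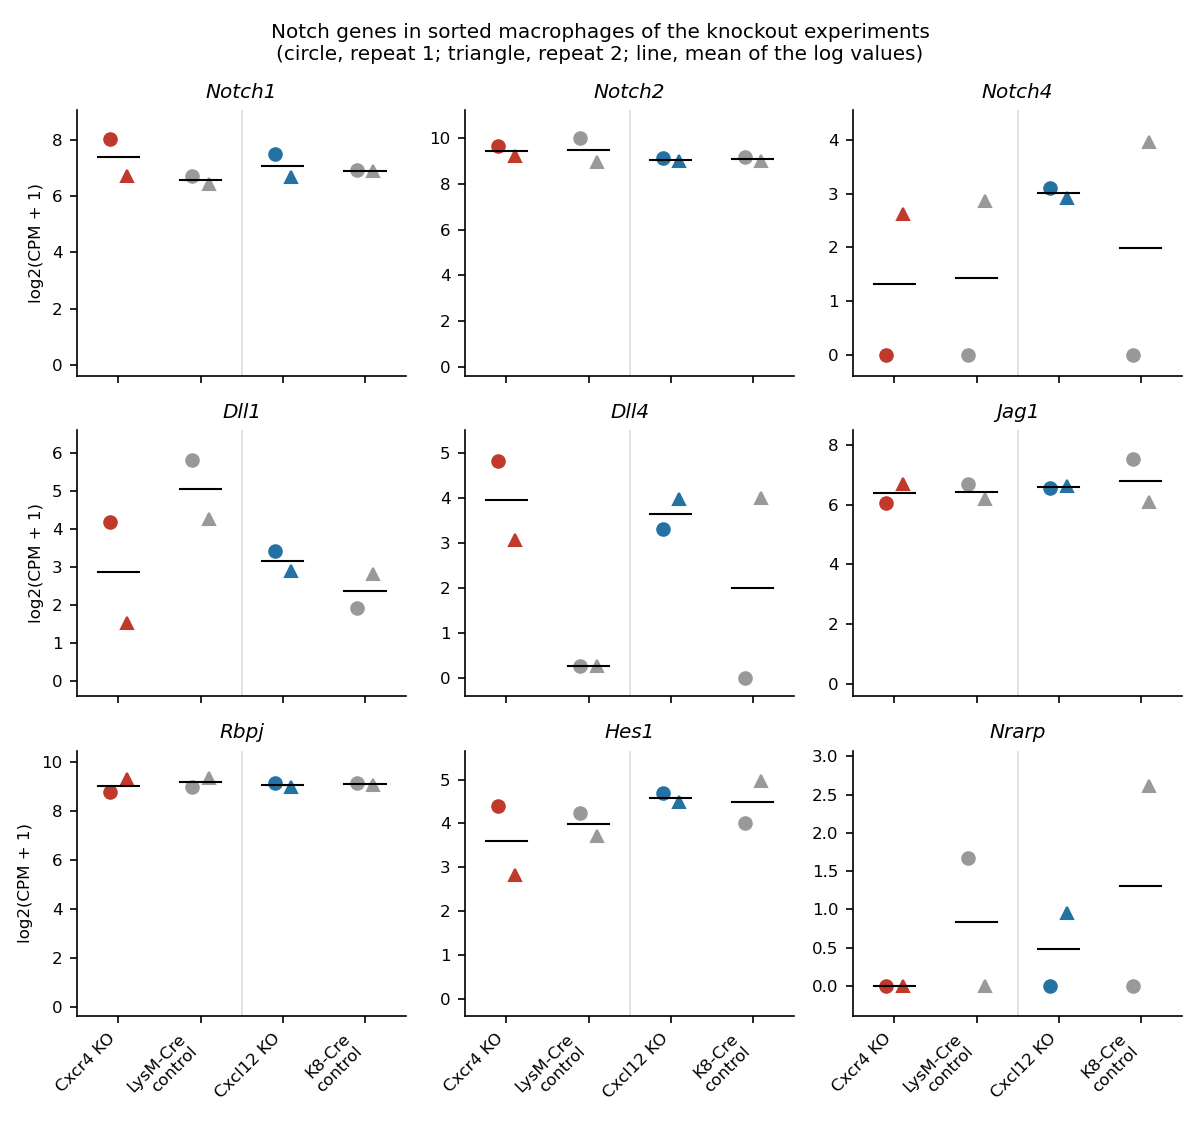
Levels of 9 Notch genes, as log2(CPM + 1), in sorted macrophages of the 4 genotypes, with 1 panel per gene, a circle for repeat 1, a triangle for repeat 2 and a line at the mean of the log values. Dll4 is near 0 in both LysM-Cre controls and not in the Cxcr4 knockout, while Notch2 and Rbpj lie high in all 8 libraries.

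Deletion of Cxcl12 in luminal cells likewise moved no member in macrophages past the threshold: 0 of 9 members and 0% of the 17275 genes passed limma, with 491 genes and no member at an unadjusted p under 0.05. The gene count rose to 151 when the second K8-Cre control was dropped and to 7 when the second Cxcl12 knockout was, again with 0 members. Dll1 was the 1 member whose groups did not overlap, and 28.5% of all genes tested did not overlap either (20.4% higher, 8.05% lower). It had 9.60 and 6.44 CPM in Cxcl12 knockout macrophages against 2.79 and 6.07 CPM in K8-Cre controls. Knockout repeat 2 was barely above control repeat 2. The log2 change of 0.78 (SE 1.64) became -0.33 under quantile normalization, which moved the median change of all genes to 0.02, against 0.36 as deposited.

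K8-Cre control 1, the shallowest library, was low in Notch4 and Dll4, which were listed at 0 there. Notch4 had 7.57 and 6.59 CPM in the Cxcl12 knockout against 0 and 14.5 CPM in the control. Dll4 had 8.94 and 14.8 CPM against 0 and 14.9 CPM. For both genes the 2 controls enclosed the knockouts. The endothelial marker sum had the same shape, with 189 and 353 CPM in the knockout against 63.2 and 412 CPM in the control, and its part in these levels was not tested. Jag1 ran opposite, with 92.6 and 97.3 CPM in the knockout against 183 and 66.4 CPM in the control.

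The groups of the remaining members overlapped. Notch1 had 178 and 103 CPM in the Cxcl12 knockout against 121 and 117 CPM in the control. Notch2 averaged 534 ± 40.5 CPM against 551 ± 47.0 CPM, and Rbpj 534 ± 34.6 CPM against 547 ± 16.7 CPM (SD, n = 2 each). Hes1 had 24.7 and 21.4 CPM against 14.997 and 30.2 CPM, and Nrarp was under the floor in 1 library of each group, with 0.937 CPM in the other knockout and 5.13 CPM in the other control. The 95% intervals of the log2 changes were -0.92 to 0.83 for Notch2 and -0.92 to 0.85 for Rbpj.

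No member passed the limma test of the difference between the 2 knockouts (0 of 9, against 0.00579% of genes and 428 genes at an unadjusted p under 0.05). Of 53 further Notch pathway genes, 47 were tested in each knockout and none passed. Their median log2 change was 0.10 in the Cxcr4 knockout against 0.14 over all genes, and 0.51 in the Cxcl12 knockout against 0.36.

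Across the 8 libraries of the knockout experiments each member was also matched to the genes with the most similar profile, by Pearson's r of log2(CPM + 1) among 10121 genes with a median of at least 5 CPM. Sertad1 (r = 0.987), Pon2 and Litaf were most like Notch2. Ubl3 (0.961), H2-K2 and Aopep were most like Notch1. For Dll4 they were Map3k4 (0.991), Mpc1-ps and Nagpa, and for Dll1 Eif3h (0.965), Eif2s2 and Rps12-ps3. Dnajb14 (0.974), Tspo and Morrbid were nearest to Jag1, Ccng1 (0.949), Bzw1 and Tmem123 to Rbpj, and Syf2 (0.924), Gm26244 and Gm22068 to Hes1. Notch4 had 328 genes above r = 0.9, led by Gm45853 (0.995), Oplah and Surf6. It is at 0 in 3 of the 8 libraries, and whether these genes are low in the same libraries was not checked. The points share libraries and depth, and the best of many genes over 8 points is high by selection.

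In the sort by surface CXCR4, Notch1 was higher in CXCR4-positive macrophages, with 228 and 194 CPM against 91.1 CPM in the CXCR4-negative library. Both positive libraries were above the negative one. The log2 change was 1.20 (SE 0.35, 95% interval 0.51 to 1.89, limma adjusted p = 0.0115). It was the 1 of 8 members tested that passed, where 8.46% of the 14411 genes tested did (5.06% higher, 3.4% lower), so a single call among the members is near the background. The negative arm is 1 library with no spread of its own, and the error used here comes wholly from the trend over genes. The call ended without the filter on low values (adjusted p = 0.258) and without the mean-variance trend (adjusted p = 0.404), where 0 genes passed in either case.

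Hes1 lay on the opposite side, at 25.4 and 11.0 CPM in CXCR4-positive macrophages against 53.8 CPM in CXCR4-negative ones. Its log2 change of -1.63 (SE 0.57, 95% interval -2.74 to -0.51, limma adjusted p = 0.0510) did not pass, and was -2.20 with positive library 2 alone and -1.05 with positive library 1 alone. Rbpj had 825 and 696 CPM against 437 CPM, with a log2 change of 0.79 (SE 0.33, limma adjusted p = 0.133). Jag1 had 69.1 and 71.6 CPM against 42.9 CPM, which also did not pass (limma adjusted p = 0.387). In each of these 3 genes the negative library lay outside the positive pair, as it did for every other member except Dll1. The order alone therefore does not set them apart, and its share over all genes was not counted.

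Notch2 was nearly level, with 706 and 608 CPM in CXCR4-positive against 786 CPM in CXCR4-negative macrophages. Notch4 had 2.88 and 0.221 CPM against 5.60 CPM, and Dll4 7.92 and 0.200 CPM against 9.83 CPM, so positive library 2 was low in both of these vessel-associated genes. Dll1 had 3.44 and 8.20 CPM against 7.5004 CPM. Nrarp, which was too low to be tested, had 0.338 and 1.88 CPM against a value under the floor.

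Of the 53 further pathway genes 46 were tested in the sort, and 2 passed as higher and none as lower, where 5.06% of all genes passed as higher. Both calls have the limits given for Notch1 and likewise ended without the filter and without the trend. Dtx4, of the Deltex ubiquitin ligase family that acts on Notch receptors, had 185 and 193 CPM in CXCR4-positive macrophages against 14.8 CPM in CXCR4-negative ones, a log2 change of 3.58 (SE 0.39, limma adjusted p = 2.83e-17). Maml2, a coactivator of the RBPJ complex, had 38.1 and 25.5 CPM against 7.76 CPM, a log2 change of 1.88 (SE 0.62, limma adjusted p = 0.0341). The median over the 46 genes was -0.10, against -0.20 over all genes. The positive libraries held 632 and 875 CPM of Cxcr4 RNA, against 772 CPM in the negative one. Summed macrophage markers were 14483 and 17177 CPM against 7358 CPM, dendritic cell markers 805 and 873 CPM against 1821 CPM, and monocyte markers 1304 and 1188 CPM against 2878 CPM. The part of these shifts in the Notch1 and Hes1 levels was not tested. Fewer cells of a type and less RNA per cell cannot be told apart in such bulk libraries.

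**Figure D2:**
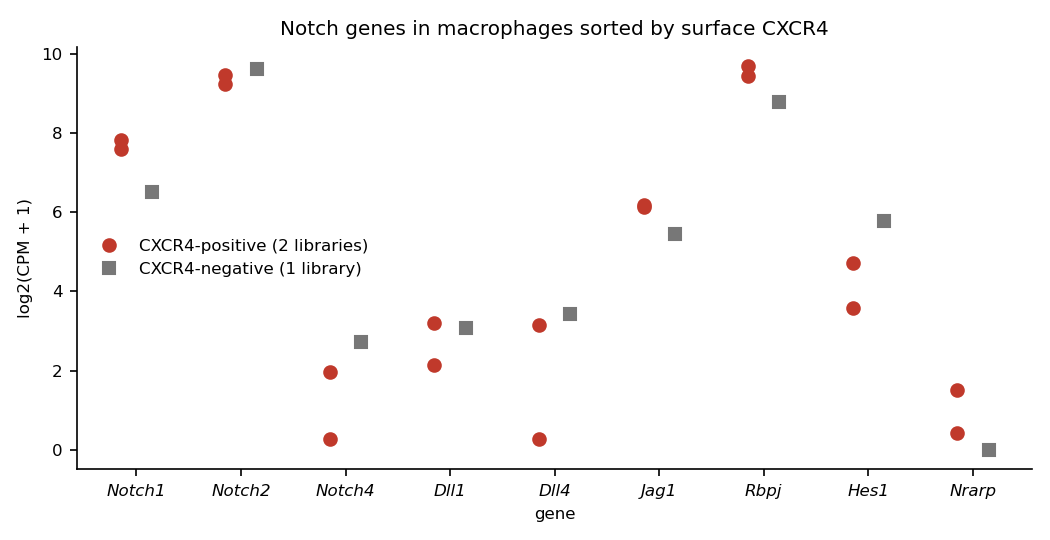
Levels of 9 Notch genes, as log2(CPM + 1), in 2 CXCR4-positive libraries (circles) and 1 CXCR4-negative library (squares). Notch1, Rbpj, Jag1 and Nrarp are higher in both positive libraries than in the negative one. Hes1, Notch2, Notch4 and Dll4 are lower in both, and for Dll1 the negative library lies between them.

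Cultured macrophages had a different balance of Notch RNA. Of the 9 members comparable with freshly sorted cells, 5 were higher in each of 4 cultured libraries than in any of 11 fresh ones, and none was lower. Over 14254 genes 11% did not overlap (7.04% higher, 3.94% lower). The tables were normalized separately, so the comparison has no test. The members' median log2 difference of medians was 2.14, against -0.07 over all genes.

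Notch1 ranged from 485 to 597 CPM in culture with a median of 523, against 85.9 to 264 CPM with a median of 117 in fresh cells. Notch4 ranged from 29.2 to 95.7 CPM, against 0 to 14.5 CPM. Dll4 ranged from 73.0 to 222 CPM, against 0 to 27.3 CPM. Jag1 ranged from 203 to 568 CPM, against 42.9 to 183 CPM. Nrarp ranged from 60.6 to 124 CPM, against at most 5.13 CPM, and its antisense partner Gm38287 was listed at 41.8 to 46.1 CPM in 3 of the cultured libraries.

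Notch2 (495 to 796 CPM in culture against 497 to 1035 CPM in fresh cells) and Rbpj (519 to 606 CPM against 436 to 825 CPM) overlapped, and so did Dll1 and Hes1. Per kilobase, Jag1 and Dll4 came up to the level of Notch2 and Rbpj in culture, with medians of 65.5 CPM for Jag1, 54.4 CPM for Notch2, 46.6 CPM for Rbpj and 44.3 CPM for Dll4. Among the further pathway genes Notch3 (246 to 396 CPM against 5.22 to 37.9 CPM), Hey1 (52.8 to 110 CPM against 0 to 36.4 CPM) and Mib1 were higher and Itch was lower, 4 of 46 genes, named after their values were seen.

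The endothelial markers moved with these genes. Their sum was 3004 to 4394 CPM in the cultured libraries, against 63.2 to 412 CPM in the fresh ones, and 14 of the 15 were higher in every cultured library than in any fresh one. Cdh5, the adhesion molecule of endothelial junctions, ranged from 678 to 869 CPM in culture against 0.116 to 70.9 CPM in fresh cells. None of the 12 macrophage markers was higher in this sense and 2 were lower, and Adgre1 had 149 to 240 CPM. The part of endothelial RNA in the Notch levels of culture was not tested.

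**Figure D3:**
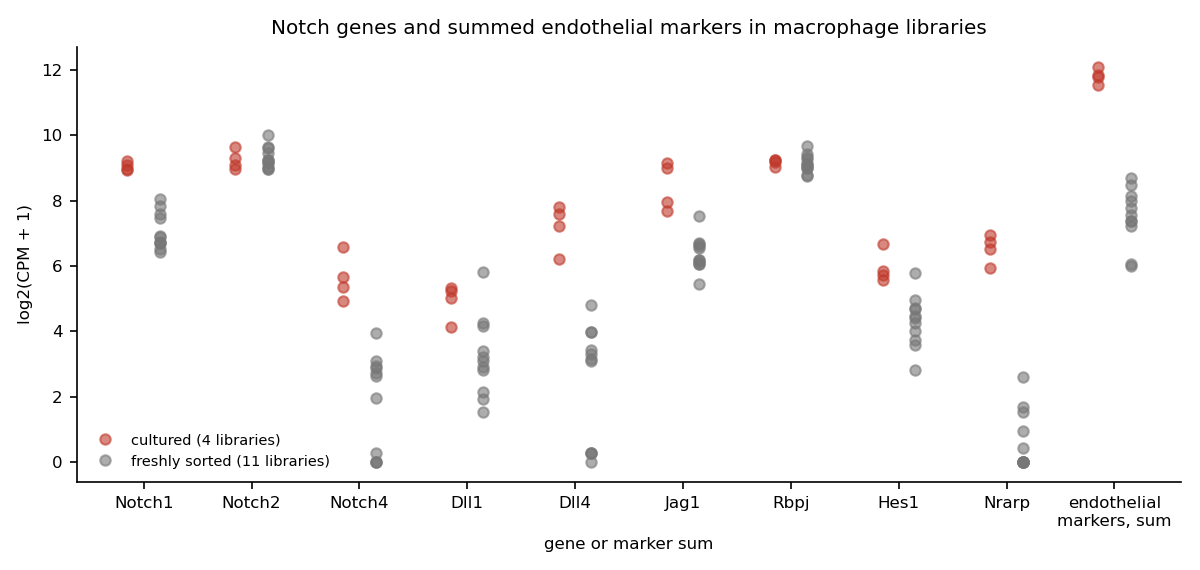
Levels, as log2(CPM + 1), of 9 Notch genes and of the sum of 15 endothelial markers in 4 cultured (left of each pair) and 11 freshly sorted macrophage libraries (right). Notch1, Notch4, Dll4, Jag1, Nrarp and the marker sum are higher in every cultured library, while Notch2 and Rbpj overlap.

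AKT inhibition in culture went with less Jag1. The library with CXCL12 and inhibitor had 203 CPM and the one with inhibitor alone 247 CPM, against 516 CPM with CXCL12 alone and 568 CPM without treatment. Both inhibitor libraries were thus under both others. The log2 ratio was -1.20 without CXCL12 and -1.35 with it. Jag1 was the 1 of 10 members past 2-fold in both ratios with at least 10 CPM, and 10.5% of 8542 eligible genes were (4.75% higher, 5.75% lower). A single call among 10 members is thus near the background. With no replicates, an additive limma fit took the departure from additivity as its spread and gave Jag1 a log2 change of -1.27 (SE 0.24, limma adjusted p = 0.0737), with 0 of 10 members passing and 0.0866% of 13864 genes, or 12. The summed markers of endothelial cells, which also use Jag1, were 3696 CPM with both agents and 4394 CPM with inhibitor, against 3004 CPM with CXCL12 and 3522 CPM untreated. Their part in the Jag1 levels was not tested.

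The promoter window of Jag1, the ligand lower with the inhibitor and in the P4 knockout library, and that of Notch1, the receptor higher in CXCR4-positive cells, are shown from RefSeq on GRCm38.p6 as 250 bases before to 50 after the start site, 5′ to 3′. Jag1 lies at chr2:137116471-137116770 and Notch1 at chr2:26503773-26504072, both on the minus strand, and capitals mark matches to the RBPJ words searched.
Jag1: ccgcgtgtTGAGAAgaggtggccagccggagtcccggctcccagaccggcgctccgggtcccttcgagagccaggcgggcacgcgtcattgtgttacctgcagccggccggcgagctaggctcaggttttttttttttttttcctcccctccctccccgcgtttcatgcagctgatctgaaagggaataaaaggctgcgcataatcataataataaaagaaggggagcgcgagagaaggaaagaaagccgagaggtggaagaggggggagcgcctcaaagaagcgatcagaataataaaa
Notch1: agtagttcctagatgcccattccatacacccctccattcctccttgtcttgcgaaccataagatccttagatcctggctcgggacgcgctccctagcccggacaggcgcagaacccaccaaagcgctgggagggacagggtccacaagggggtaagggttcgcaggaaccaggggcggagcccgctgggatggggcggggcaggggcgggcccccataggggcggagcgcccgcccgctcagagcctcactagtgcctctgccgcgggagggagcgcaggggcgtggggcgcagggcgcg
The RBPJ core word TGGGAA and its variant TGAGAA were searched on both strands, with no overlap between them. TGGGAA was found in 2 of 10 windows of 8 members, both of Rbpj, and in 25.6% of 32851 promoters of the same length. The 2 Rbpj windows overlap and share a match, so they do not count separately. TGAGAA was found in the Jag1 window alone, at position -242 from the start site, and in 20.2% of promoters. GTAAACA, a core word of FOXO factors that AKT holds out of the nucleus, was in none of the 10 windows and in 3.65% of promoters. Hes1 and Heyl were not matched in the promoter table.

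Over the 4 cultured libraries Notch1 spanned 1.23-fold and Notch2 1.61-fold, while Notch4 spanned 3.27-fold, the widest range of the 10 members. Notch1 had 485 CPM with both agents, 504 CPM with inhibitor and 542 CPM with CXCL12, against 597 CPM untreated. Notch2 ran in the opposite order, with 796, 627 and 546 CPM against 495 CPM. Its log2 ratios for the inhibitor were 0.34 and 0.54, short of 2-fold. Notch4 had 29.2 CPM with both, 95.7 CPM with inhibitor and 39.8 CPM with CXCL12, against 50.04 CPM untreated, so the inhibitor ratio was 0.93 without CXCL12 and -0.44 with it.

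The Delta ligands were lowest where both agents were given, as were Notch1, Notch4 and Jag1. That library had 30.9% of genes at 0, against 12.3% to 19.6% in the other cultured libraries. Dll4 had 73.0 CPM with both, against 222 CPM with inhibitor alone, 149 CPM with CXCL12 alone and 192 CPM untreated. Its CXCL12 log2 ratio was -1.60 with the inhibitor and -0.37 without it, and the additive limma fit gave -0.98 (SE 0.34, adjusted p = 0.816). Dll1 had 16.7 CPM with both, against 39.2 CPM with inhibitor, 36.9 CPM with CXCL12 and 31.7 CPM untreated. For CXCL12, 0 of 10 members were past 2-fold in both ratios, where 6.55% of 8415 genes were (2.45% higher, 4.1% lower), and the additive limma fit called none of the members and 0% of genes, with 836 genes at an unadjusted p under 0.05.

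Of the targets, Hes1 was highest with both agents, at 101 CPM, against 52.3 CPM with inhibitor, 56.5 CPM with CXCL12 and 46.1 CPM untreated. Heyl, a repressor of the Hey family, had 38.1 CPM with both, 12.9 CPM with inhibitor and 20.97 CPM with CXCL12, against 30.4 CPM untreated. Nrarp had 106, 90.1 and 60.6 CPM against 124 CPM. The targets thus did not share an order over the 4 libraries. Rbpj had 605, 519 and 606 CPM against 584 CPM, and its inhibitor change of -0.09 became 0.0041 when pseudogene values were added to it. Of 40 further pathway genes eligible, Dtx3 was higher with the inhibitor in both ratios (1.20 and 1.13). Aph1a, a gamma-secretase subunit needed to cut Notch, was lower with CXCL12 in both (-1.21 and -1.52). Over all eligible genes, 4.75% were higher in both inhibitor ratios and 4.1% lower in both CXCL12 ratios. A single call among 40 genes is thus not above the background in either case.

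**Figure D4:**
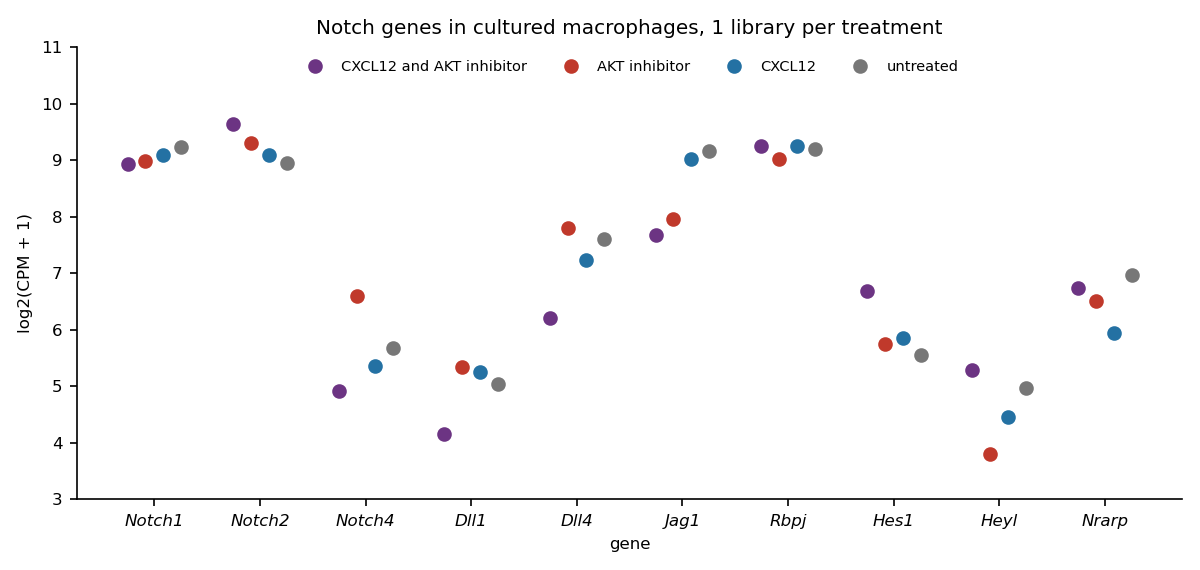
Levels of the 10 Notch genes, as log2(CPM + 1), in cultured macrophages with both agents, AKT inhibitor, CXCL12 or no treatment, with 1 library each and a vertical axis that starts above 0. Jag1 is lower in both libraries with inhibitor than in both without.

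In P4 cells Dll1 and Jag1 led, while the third ligand, Dll4, ranked 8 to 9 of 10. Dll1 had 163 FPKM in the Cxcl12 knockout library and 156 FPKM in the K8-Cre control, and with Jag1 it held the first or second rank by FPKM, a value already per length, in both. Rbpj came next, with 50.8 FPKM in the knockout and 49.0 FPKM in the control. In freshly sorted macrophages Dll1 took ranks 4 to 9 of 9 per kilobase. The basal cell regulator Trp63 had 75.1 FPKM in the knockout and 119 FPKM in the control, and summed macrophage markers were 46.2 FPKM in the knockout and 26.0 FPKM in the control, beside basal marker sums of 7615 FPKM and 5812 FPKM.

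Jag1 was the 1 member past 2-fold between the P4 libraries, at 94.3 FPKM in the Cxcl12 knockout against 220 FPKM in the control. Its log2 ratio of FPKM + 1 was -1.21. Of the 10 members 6 reached the 10 FPKM needed for a call, and 13.3% of 6599 eligible genes were past 2-fold (7.99% higher, 5.33% lower). A single call among 6 members is near that share. With 1 library per genotype there is no replicate check. The median ratio of the 6 eligible members was -0.18, against -0.04 over all eligible genes. Below that level, Notch4, Dll4, Heyl and Nrarp had ratios of -0.13, -0.16, 1.18 and 1.55.

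Among the receptors, Notch1 had 11.0 FPKM in the knockout against 16.4 FPKM in the control, Notch2 20.6 against 17.1 FPKM, and Notch4 0.105 against 0.210 FPKM. Dll4 had 1.80 FPKM against 2.12 FPKM. Hes1 had 19.5 FPKM in the knockout against 26.3 FPKM, while the low-level targets were on the other side: Nrarp had 8.53 FPKM against 2.25 FPKM, and Heyl 2.09 FPKM against 0.366 FPKM. Of 30 further pathway genes eligible, 3 were lower and 1 higher. Together these are near the share of all eligible genes past 2-fold, which was 13.3% (7.99% higher, 5.33% lower). Numb, an inhibitor of Notch, had 5.34 against 14.7 FPKM, the Notch target Hey1 6.42 against 15.1 FPKM, and Dtx2 2.00 against 10.2 FPKM. Psenen, a gamma-secretase subunit, had 33.9 against 12.8 FPKM. Endothelial markers summed to 33.4 FPKM in the knockout and 14.5 FPKM in the control. Cxcl12 in these P4 libraries was 350 FPKM in the knockout against 270 FPKM in the control.

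**Figure D5:**
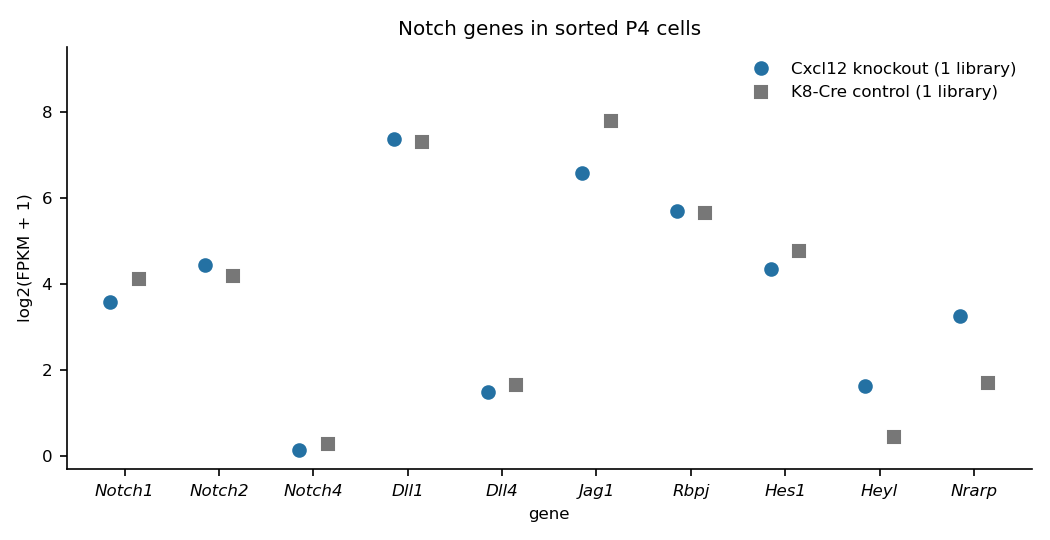
Levels of the 10 Notch genes, as log2(FPKM + 1), in 1 Cxcl12 knockout (circle) and 1 K8-Cre control (square) library of P4 cells. Dll1 and Jag1 are the highest genes, and Jag1 is lower and Nrarp and Heyl are higher in the knockout library.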

How the data were processed

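Expression was read from 3 deposited macrophage tables and 1 P4 table. The macrophage tables hold log2 values, which the authors deposited without a stated unit. They behave as log2(CPM + 0.0001), with 74.8% to 90.2% of values up to 50 reads falling on whole reads (tolerance 0.05 reads), too few to treat them as counts, and depth was taken from that step. The P4 table holds FPKM as deposited, per the file headers. Per the submitters' processing notes, tools included Partek and STAR 2.7.8a. The same notes give hg38, a human build, while the symbols are mouse. The counting step is not given in the sources used here. Entries sharing a symbol (91 in culture, 27 in P4) were reduced to the highest, and 429 P4 entries without a name were dropped.

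Levels were CPM recovered from the deposited log2 values. Two-sided tests were made with limma 3.58.1 (R 4.3.3). Values entered as log2(CPM + 1), a gene needed 1 CPM or more in 2 or more libraries, and the fit used a mean-variance trend and Benjamini-Hochberg adjustment over all genes tested. All 8 knockout-experiment libraries shared one fit with 4 group means and no block. The plan had also foreseen a count model, and its fallback for normalized values was used. Tests were tried on simulated data with known changes. There the additive culture fit, with 1 residual degree of freedom, called more unchanged genes than its threshold allows, so ratios lead there, with a prior of 0.1 CPM. The CXCR4 fit also has 1 residual degree of freedom, and its spread comes wholly from the trend over genes. In the knockout fit the trend carried 97.3 degrees of freedom against 4 from the libraries, and in the culture fit 13.3 against 1. The spread of those fits thus comes mostly from the trend as well.

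The members, the lists of pathway and marker genes, and the tests were chosen with earlier results of these data known. The text names all members, further pathway genes that passed or were past 2-fold (at most 5 each way), and for each member of at least 5 CPM the 3 genes of most similar profile. Exon lengths are from GENCODE M21. Alternatives were other pseudocounts, no filter, 2 other scalings, no trend, a replicate block, fits of 1 Cre line, and each library left out.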

Additional observations from a re-analysis of the deposited data

Results flagged for a closer look

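Dll1 was marked because its groups did not overlap in either line, with opposite directions in the 2 knockouts. In the Cxcr4 knockout it was lower, at 16.98 and 1.89 CPM against 54.8 and 18.3 CPM in the control, and in the Cxcl12 knockout it was higher, at 9.60 and 6.44 CPM against 2.79 and 6.07 CPM. The difference between the log2 changes was -2.96 (SE 2.32, 95% interval -7.56 to 1.64), and by limma it did not pass (adjusted p = 1.00). Under quantile normalization the Cxcl12 knockout change turned to -0.33. Of all genes tested, 25.5% did not overlap in the Cxcr4 and 28.5% in the Cxcl12 knockout. The share with opposite directions was not counted.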

How the results depend on the processing

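No member passed in either knockout, or in the difference between them, under the alternatives run: pseudocounts of 0.1 and 5, no filter, quantile normalization, median-ratio scaling, no trend, the replicate block, single Cre lines and each library left out (0 to 0 members). For each gene, the deviation of a library from its group mean was taken. Over 17275 genes, these deviations in same-numbered libraries of knockout and control correlated at 0.139 in the LysM-Cre line. In the K8-Cre line the value was 0.0910, and over the 6 pairs of groups it ranged from 0.0573 to 0.139. The labels give the number no meaning, and with 2 pairs it was not taken as a pairing, although repeat 1 was the shallower library, with a larger share of genes at 0, in all 4 genotypes. With the replicate block 1 gene passed in the Cxcr4 and 1 in the Cxcl12 knockout, against 1 and 0.

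In the CXCR4 sort 0 members passed without the filter and 0 without the trend, and left-out libraries gave values with no test. For the AKT inhibitor the additive limma fit passed 1 member, Jag1, under some alternatives. Its adjusted p was 0.00180 with a pseudocount of 5, 0.000603 without the filter and 0.0104 with median-ratio scaling. These settings passed 51 of 13864, 69 of 18818 and 37 of 13828 genes. The adjusted p of Jag1 ranged up to 0.658, without the trend. On simulated data this additive fit called more unchanged genes than its threshold allows. In P4 cells 3 members were past 2-fold from 1 FPKM: Jag1, which was lower, and Heyl and Nrarp, which were higher. The share of all genes past 2-fold at that cut is not given here. With 1 library per genotype, the count is not read as a result about the members.

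Signs of changes that did not pass were not stable. In the Cxcl12 knockout, quantile normalization gave -0.0202 for Notch4, -0.33 for Dll1 and -0.0942 for Hes1, and median-ratio scaling gave -0.0340 for Notch1 and -0.10 for Hes1. Adding pseudogenes, chosen after seeing the data, gave Rbpj 0.0041 for the inhibitor. With 1 library left out, changes in the Cxcr4 knockout ranged from -0.57 to 0.49 for Notch2, -0.38 to 0.26 for Jag1, -1.56 to 1.31 for Notch4, -0.40 to 0.12 for Rbpj and -1.17 to 0.41 for Hes1. In the Cxcl12 knockout they ranged from -0.13 to 0.0443 for Notch2, -0.94 to 3.01 for Notch4, -0.34 to 3.65 for Dll4, -0.94 to 0.51 for Jag1, -0.38 to 0.58 for Hes1, -0.21 to 0.57 for Notch1 and -0.10 to 0.0322 for Rbpj. Dll1 in the sort ranged from -0.94 to 0.11. The Dll4 change in the Cxcr4 knockout ranged from 1.94 with a pseudocount of 5 to 5.56 with 0.1. Cause was not tested for any of these.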
